A study of Mus musculus with 4 samples.

Results

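The 9 genes Actb, Gapdh, Ubb, Eef1a1, Tpt1, Fth1, Ftl1, Lyz2 and Tmsb4x are sources of some of the most abundant messenger RNAs of a macrophage. They were picked from 21440 mouse protein-coding genes with a known strand because several of them had open-chromatin peaks inside the gene or at its 3′ end in some of the libraries, so the positions and strengths given here are a description of a chosen set and no test was made on them. Open chromatin had been mapped with ATAC-seq, in which the Tn5 transposase inserts sequencing adapters into accessible DNA, in RAW264.7 cells, an established mouse macrophage line labelled as wild type. Every culture was exposed to 25 ug/mL oxidized low-density lipoprotein with a fluorescent dye (DIL-oxLDL) during 24 h. The control group had DMSO with 0 ug/mL esculetin (n = 2 libraries) and the other group had 40 ug/mL of the coumarin esculetin (n = 2 libraries). Nothing in the labels gives the replicates as separate cultures, so their spread may be technical. The libraries are called control libraries 1 and 2 and esculetin libraries 1 and 2, which are the replicates of these numbers in the figures. In a bulk sample a larger share of cells with an open site and a site more open in each cell cannot be told apart.

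The start of an active gene is usually kept free of nucleosomes by transcription factors and the transcription machinery, and it is the usual place of an ATAC-seq peak. The body and the 3′ end of a gene carry no such signal by default. Actin, thymosin, glyceraldehyde-3-phosphate dehydrogenase, ubiquitin, elongation factor and ferritin are needed in nearly every cell, whereas Lyz2 encodes the lysozyme of macrophages and neutrophils. Several of these genes have left processed pseudogenes, intron-free copies of their messenger RNA, elsewhere in the genome.

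The sequences before the annotated starts of 6 of the genes are shown because the peaks at the starts lay on or beside them. They were taken from the RefSeq promoter table of GRCm38.p6, the assembly of mm10, and each is the 250 bases before the start on the strand of the gene. The Ubb sequence is chr11:62550921-62551170 (+), the Eef1a1 sequence chr9:78481725-78481974 (-), the Tpt1 sequence chr14:75845006-75845255 (+), the Ftl1 sequence chr7:45459887-45460136 (-), the Fth1 sequence chr19:9982396-9982645 (+), before the second start of that gene, and the Lyz2 sequence chr10:117282273-117282522 (-). Capitals mark CCAAT boxes, GC boxes (GGGCGG) and the response element TGACNNNGC, on either strand.
Ubb: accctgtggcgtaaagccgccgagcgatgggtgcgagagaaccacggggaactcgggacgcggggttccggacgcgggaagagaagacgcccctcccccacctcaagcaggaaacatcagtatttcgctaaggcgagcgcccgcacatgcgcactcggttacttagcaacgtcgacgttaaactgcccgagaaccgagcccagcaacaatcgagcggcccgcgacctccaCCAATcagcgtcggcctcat
Eef1a1: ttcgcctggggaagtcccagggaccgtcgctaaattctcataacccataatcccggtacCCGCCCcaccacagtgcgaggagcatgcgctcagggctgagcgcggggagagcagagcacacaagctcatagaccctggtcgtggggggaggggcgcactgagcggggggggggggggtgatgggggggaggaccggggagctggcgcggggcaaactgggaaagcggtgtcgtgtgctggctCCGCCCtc
Tpt1: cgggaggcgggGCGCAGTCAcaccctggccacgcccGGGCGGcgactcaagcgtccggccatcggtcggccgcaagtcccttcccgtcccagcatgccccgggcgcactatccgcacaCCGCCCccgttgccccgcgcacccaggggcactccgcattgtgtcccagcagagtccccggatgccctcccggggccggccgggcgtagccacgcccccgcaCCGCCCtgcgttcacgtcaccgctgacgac
Ftl1: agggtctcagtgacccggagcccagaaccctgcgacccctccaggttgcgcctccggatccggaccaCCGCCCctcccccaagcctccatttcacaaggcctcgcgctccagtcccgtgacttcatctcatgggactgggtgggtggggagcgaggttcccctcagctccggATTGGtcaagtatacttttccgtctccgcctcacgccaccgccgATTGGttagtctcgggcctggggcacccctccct
Fth1: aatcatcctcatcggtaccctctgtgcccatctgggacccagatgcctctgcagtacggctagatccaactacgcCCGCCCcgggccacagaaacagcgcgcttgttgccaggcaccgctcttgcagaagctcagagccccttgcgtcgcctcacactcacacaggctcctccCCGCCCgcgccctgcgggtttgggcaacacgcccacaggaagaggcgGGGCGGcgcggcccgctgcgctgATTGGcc
Lyz2: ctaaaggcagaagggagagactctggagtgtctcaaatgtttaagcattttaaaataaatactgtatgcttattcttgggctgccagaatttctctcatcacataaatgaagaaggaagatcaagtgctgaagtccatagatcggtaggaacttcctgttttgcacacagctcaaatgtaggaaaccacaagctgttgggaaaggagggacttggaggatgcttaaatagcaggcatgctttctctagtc

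Among the 10 promoter sequences that the table held for 8 of the 9 genes, GC content differed within the set. The upstream bases were 75.6% G or C for Tpt1, 68% for Eef1a1, 66.8% for the second start of Fth1, 65.2% for Ftl1 and 62.8% for Ubb, against a median of 52.4% over the 32851 promoters of the table. The second start of Ubb had 58% and Gapdh 55.6%. Below the median lay the second start of Tmsb4x with 52%, Lyz2 with 41.6% and the outer start of Fth1 with 34.8%. CpG dinucleotides numbered 1 before Lyz2 and 3 before the outer start of Fth1, where Tpt1 had 33 and Ubb 30. Counted over the 250 bases before and 50 after each start, on both strands, GGGCGG (a GC box) was found in 6 of the 10 sequences and in 35.7% of all promoters. The letters CCAAT, read by factors such as NF-Y, were in 3 of 10 (all promoters 37.4%), those of Ubb, Ftl1 and the second start of Fth1. TATAAA was in 2 of 10 (13.6%) and TGACNNNGC, the core of the antioxidant response element, in 3 of 10 (12.4%), those of Tpt1, Lyz2 and the second start of Ubb. TGACTCA (AP-1) and GAGGAAGT (PU.1) were in 0 of 10, where all promoters held them in 5.20% and 3.20%. Only these exact letters were searched, so a site that differs by 1 base is not counted. The printed Lyz2 sequence holds ACTTCCTG, which is 1 base away from ACTTCCTC, the form of GAGGAAGT on the other strand. A run of pyrimidines at the first transcribed base, the mark of translation-factor messenger RNAs, was 5 bases long in Eef1a1, 4 in Ubb and 0 in Tpt1 at the starts as annotated, and runs of 5 or more were present in 4.44% of all promoters. None of these letters overlapped in the printed sequences, and a match is not evidence of binding.

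The 4 libraries differed in the number of peaks called, with 19595 in control library 1, 27833 in control library 2, 8677 in esculetin library 1 and 12792 in esculetin library 2. The genome-wide background coverage solved from the lists, a measure of depth, was 6.51, 4.08, 4.97 and 4.10 in the same order. Control library 2 therefore had the longest list although its solved background was low and close to that of esculetin library 2. It stood apart in the values below, which are given with and without it. Genes that mark macrophages were checked in the same lists, and a peak at an annotated start was present for 6, 5, 1 and 4 of 10 markers. Spi1, the gene of the macrophage factor PU.1, had one in all 4 libraries. The 3′ end had a peak for 2, 6, 1 and 0 of the 10, in both controls and neither esculetin library for Laptm5 and Csf1r. Of 22 markers of T cells, B cells, epithelium, fibroblasts, endothelium and hepatocytes, 0 had a start peak in any library. A peak anywhere in the window was called for 2, 6, 0 and 2 of the 22, and one at the 3′ end for 1, 4, 0 and 0. These 3′ peaks were at Kdr in both controls and at Col1a1, Col1a2 and Apoa1 in control library 2, and these genes, like Laptm5 and Csf1r, were named after their values were seen. The marker 3′ peaks lay mostly in the libraries in which the 9 genes had most of their 3′ peaks, and their part in the results was not tested.

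For each gene, all peaks with a summit from 5 kb before its 5′ end to 2 kb past its 3′ end were read. A summit was placed at the 5′ end or at the 3′ end if it lay within 1 kb of that end (less inside short genes, which were cut into equal parts), and otherwise in the body, upstream or downstream. Both ends reach outside the gene, so such a peak can lie at a neighbouring gene. Neighbours were looked up only for the 9 genes. The term annotated start covers the 5′ end and any other start in the RefSeq promoter table, such as those 694 bp into Gapdh, 560 bp into Ubb, 2046 bp into Fth1 and 4261 bp into Tmsb4x. Starts inside Actb other than its 5′ end were not analysed here, because the promoter table held no entry for this gene. In every count of start peaks below, Actb could therefore be counted only near its outer 5′ end. The strength of a peak is given as summit coverage over the genome-wide background of its library, called the level, and as its percentile by −log10 q within its own list. The 9 genes held 57 peaks, 16 and 17 in the controls and 13 and 11 in the esculetin libraries. Of these, 27 were at an annotated start and 18 at a 3′ end.

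**Figure D1:**
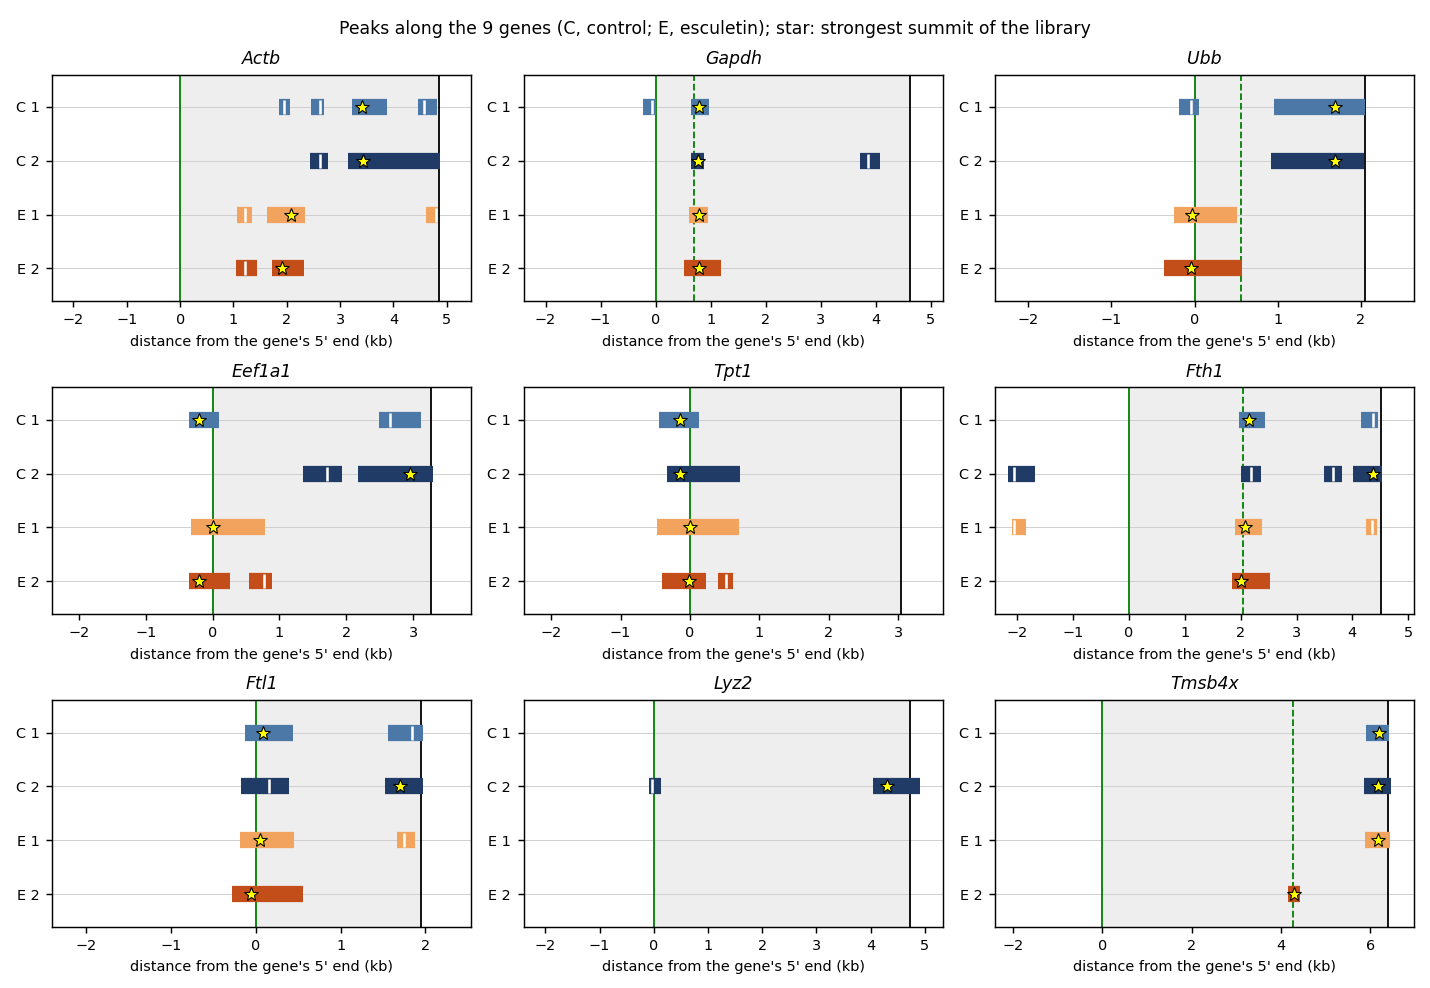
Peaks along the 9 genes in each library (C, control; E, esculetin), by distance from the 5′ end of the gene in kb. Bars are peaks, white lines summits, stars the strongest summit of the library, grey the gene, solid green lines the 5′ end, dashed green lines other annotated starts and black lines the 3′ end. In Ubb both control stars lie near the 3′ end and both esculetin stars at the start, and in Tpt1 all 4 stars lie at the start.

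The 2 genes of the actin cytoskeleton were read first. Actb (chr5:142903115-142907976, minus strand) encodes beta-actin, the subunit of actin filaments. Its strongest summit lay in the body in all 4 libraries, 3405 and 3430 bp from the 5′ end in control libraries 1 and 2, and 2071 and 1913 bp in esculetin libraries 1 and 2. The levels of these summits were 12.4 and 56.1 in the controls and 15.1 and 18.1 in the esculetin libraries. The positions of the groups did not overlap, whereas the levels did, because control library 1 was the lowest of the 4 and control library 2 the highest. In control library 2 a single peak of 1739 bp ran from 3141 bp to beyond the 3′ end, at percentile 99.3 of its list. A separate summit 1211 and 1216 bp from the 5′ end was called in esculetin libraries 1 and 2, at levels 9.66 and 13.2, and in neither control. Whether this summit lies at an inner start of Actb was not tested, so its place in the body is by the outer 5′ end only. The 3′ end had a summit in control library 1 (4580 bp, level 8.30) and in esculetin library 1 (4806 bp, level 7.85). Further body summits were called at 1952 and 2622 bp in control library 1 (levels 9.07 and 10.1) and at 2623 bp in control library 2 (level 30.9). The lncRNA Gm38733, on the other strand, overlaps the last part of Actb from 4461 bp onwards, and reads of the 2 genes cannot be separated in ATAC-seq.

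Tmsb4x (chrX:167207093-167213479, minus strand) encodes thymosin beta 4, which binds actin monomers. Its only peak in control libraries 1 and 2 and in esculetin library 1 was at the 3′ end, with summits at 6194, 6162 and 6162 bp and levels of 12.1, 52.5 and 18.5. These peaks were among the strongest of their lists, at percentiles 99.2, 99.91 and 98.9. Esculetin library 2 had no peak there, and its only peak lay 38 bp past the second annotated start (4299 bp, level 6.34, percentile 52.3). The 2 esculetin libraries thus differed from each other at this gene, and the level in esculetin library 1 lay between those of the controls.

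Glycolysis was represented by Gapdh (chr6:125161852-125166467, minus strand), the gene of glyceraldehyde-3-phosphate dehydrogenase. Its strongest summit was 774 to 784 bp from the 5′ end in all 4 libraries, which is 80 to 90 bp past the second annotated start. The level there was 6.76 in control library 1, 9.81 in control library 2, 8.05 in esculetin library 1 and 13.9 in esculetin library 2. The groups overlapped in level. Gapdh had a second peak at the outer 5′ end in control library 1 (level 6.30) and one at the 3′ end in control library 2 (3864 bp, level 8.33). This gene has many processed pseudogenes, to which reads can be lost when multiply mapped reads are removed.

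Ubb (chr11:62551171-62553213, plus strand) encodes a chain of ubiquitin units, the protein tag for degradation, which are repeated within its single coding exon. In both controls the strongest peak lay near the 3′ end, with summits at 1689 and 1684 bp, widths of 1099 and 1110 bp and levels of 18.0 and 67.4. These were at percentiles 99.3 and 99.85, rank 133 and rank 42 of their lists. In esculetin libraries 1 and 2 the strongest and only peak was at the start, with summits 35 and 48 bp before the 5′ end and levels of 13.9 and 13.2, inside the sequence printed above and upstream of its CCAAT. Control library 1 had a start peak too (46 bp before the 5′ end, level 8.61), and control library 2 had none. The level at the 3′ end was 2.09 times that at the start in control library 1. The strongest summits of the groups did not overlap in position, and this was also so without control library 2.

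Translation was represented by Eef1a1 and Tpt1. Eef1a1 (chr9:78478453-78481724, minus strand) encodes the elongation factor that brings aminoacyl-tRNA to the ribosome. Its summits at the start lay 196 bp before the 5′ end in control library 1 (level 7.07), 6 bp after it in esculetin library 1 (8.46) and 204 bp before it in esculetin library 2 (10.2). No start peak was called in control library 2, where the peaks had their summits at 1710 bp in the body (level 36.5) and at 2948 bp at the 3′ end (level 41.7). Control library 1 had a weaker 3′ summit at 2655 bp (level 6.61), 0.935 times its level at the start. The 3′ end had a peak in both controls and in neither esculetin library, and esculetin library 2 had a weak second peak near the start (767 bp, level 6.59). The strongest peak was at the start in 3 of 4 libraries, and the difference between the groups in its position rested on control library 2. The esculetin minus control difference in mean position was -1475 bp with that library and 97 bp without it.

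Tpt1 (chr14:75845256-75848303, plus strand) encodes the translationally controlled tumour protein, a growth-linked protein that binds tubulin and calcium. Its strongest peak was at the start in all 4 libraries, and no library had a peak at its 3′ end. The summits lay 146 and 144 bp before the 5′ end in the controls, and 3 and 13 bp before it in the esculetin libraries. The levels were 11.8 and 16.4 in control libraries 1 and 2 and 12.1 and 14.9 in esculetin libraries 1 and 2. The levels of the groups overlapped and the summit positions did not. Their percentiles were 98.1, 93.0, 90.1 and 93.6, and Tpt1 was the only gene of the 9 whose start peak reached percentile 90.1 or more in all 4 lists. A weaker peak at 521 bp (level 6.83) was called in esculetin library 2. The lncRNA Gm4285 starts 292 bp upstream on the other strand, so both starts share this region.

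The 2 ferritin genes encode the chains of the shell that stores iron. Fth1 (chr19:9980600-9985111, plus strand), the heavy chain with ferroxidase activity, had a peak at its second annotated start in every library, with summits 106 bp and 134 bp past it in the controls, 38 bp past it in esculetin library 1 and 46 bp before it in esculetin library 2. The levels were 13.4, 12.3, 8.46 and 10.98 in the same order, so that both controls lay above both esculetin libraries on this scale. By percentile (98.7, 70.6, 60.6 and 73.3) the groups overlapped, with esculetin library 2 above control library 2. No peak was called at the outer 5′ end, whose upstream bases were 34.8% G or C. At the 3′ end, summits at 4365, 4370 and 4359 bp had levels of 9.68 in control library 1, 21.1 in control library 2 and 6.04 in esculetin library 1. Esculetin library 2 had none. The 3′ level was 0.724, 1.72 and 0.714 times the level at the start in these 3 libraries, and control library 2 was the only one whose strongest peak was at the 3′ end. A further summit lay upstream in control library 2 (2068 bp before the 5′ end, level 7.35) and esculetin library 1 (2064 bp before, level 5.03), and one at 3651 bp in control library 2 (level 11.5). The 3′ end of Best1, on the other strand, lies at 4572 bp, just past Fth1.

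Ftl1 (chr7:45457944-45459886, minus strand), the light chain, had both a start peak and a 3′ peak in 3 libraries. The start summits lay 82 and 154 bp after the 5′ end in the controls, 45 bp after it in esculetin library 1 and 61 bp before it in esculetin library 2, with levels of 9.07, 15.2, 9.66 and 12.7. The 3′ summits at 1841, 1695 and 1743 bp had levels of 8.91 in control library 1, 19.4 in control library 2 and 6.24 in esculetin library 1. The groups overlapped in the level at the start, and at the 3′ end both controls lay above the esculetin library that had a peak. The 3′ level was 0.983, 1.27 and 0.646 times that at the start. Esculetin library 2 had no 3′ peak at either ferritin gene.

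Lyz2 (chr10:117277541-117282272, minus strand) had peaks in control library 2 only. One lay at the start, 28 bp before the 5′ end (level 8.82, percentile 28.5), and the stronger one at the 3′ end, at 4303 bp (level 19.9, percentile 94.6), 2.25 times as high. Control library 1 and both esculetin libraries had no peak in the whole window, although control library 1 had the greatest depth.

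**Figure D2:**
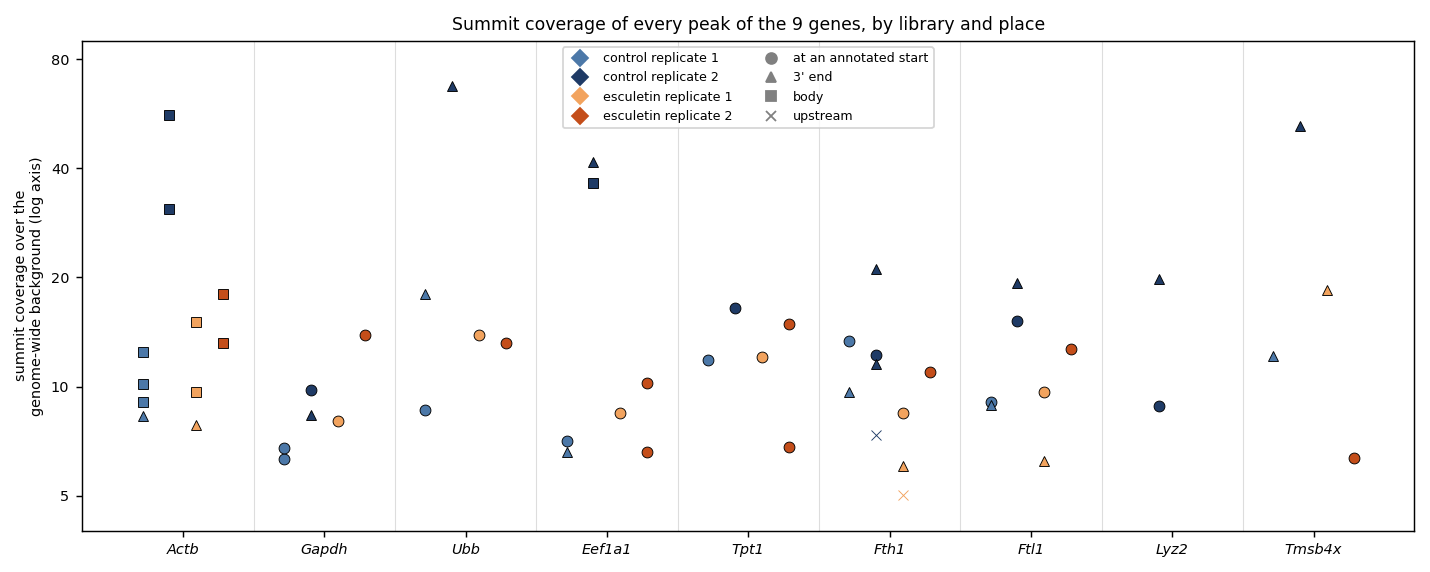
Level of each of the 57 peaks, as summit coverage over the genome-wide background of its library (log axis), by gene, library (colour) and place (symbol). The start peaks lie between 6.30 and 16.4 in all libraries, and the highest points are 3′ end or body peaks of control library 2, up to 67.4 in Ubb.

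Across the 9 genes, the start peaks had a narrow range of levels. It was 6.30 to 13.4 in control library 1, 8.82 to 16.4 in control library 2, 8.05 to 13.9 in esculetin library 1 and 6.34 to 14.9 in esculetin library 2. The 3′ end peaks ranged more widely, from 6.61 to 18.0, from 8.33 to 67.4 and from 6.04 to 18.5 in the first 3 libraries. The highest level was 67.4 at the 3′ end against 16.4 at a start. In coding genes of 1 to 10 kb outside the set with peaks at both ends, the median ratio of the 3′ to the 5′ level was 0.942 in 110 genes, 0.943 in 249, 0.963 in 38 and 0.844 in 75 in the 4 libraries. Over the 8 genes with a peak in all 4 libraries, the median level of the strongest peak was 11.99 and 31.4 in the controls and 10.9 and 12.9 in the esculetin libraries, so the difference between the group means of -9.78 shrank to -0.0863 without control library 2. With Lyz2 included, the median of control library 2 was 21.1 and the difference -4.63.

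The place of the strongest peak was then counted per library. A gene with its strongest peak at any annotated start was seen for 5 of 8 genes with a peak in control library 1, 2 of 9 in control library 2, 6 of 8 in esculetin library 1 and 7 of 8 in esculetin library 2. In 6179 other coding genes of 1 to 10 kb, the same share among genes with a peak was 72.5%, 58.4%, 78.8% and 77.8%. The strongest peak was at the 3′ end for 2, 6, 1 and 0 of the 9 genes, where the other coding genes gave 6.92%, 11.2%, 5.78% and 5.43%. Counted within 1 kb of the outer 5′ end, which takes in the second starts of Gapdh and Ubb, 4, 2, 5 and 5 genes had the strongest peak there (69.9%, 56.4%, 76.3% and 75.1%), so the controls averaged 3 ± 1.41 genes (SD, n = 2) and the esculetin libraries 5 ± 0 (SD, n = 2). These counts are what the genes were chosen on, and nothing is read from the distance to the other genes.

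At least 1 peak was found in the window of 8, 9, 8 and 8 of the 9 genes (40.7%, 45.2%, 29.1% and 36.4% of the other coding genes). In the same zone around the outer 5′ end a peak was called for 5, 4, 5 and 5 (30.6%, 31.5%, 23.2% and 28.9%), for Gapdh, Tpt1 and Ftl1 in all 4 libraries (19.3%). Gapdh, Ubb, Eef1a1 and Tpt1 had one in both esculetin libraries without a 3′ peak there (20.8%). Counted with all annotated starts, a peak at an annotated start was called for 6, 5, 6 and 7 of the 9 genes (31.7%, 32.4%, 23.9% and 29.8% of the other coding genes). Gapdh, Tpt1, Fth1 and Ftl1 had one in all 4 libraries, as had 19.9% of the other genes. Fth1 and Ftl1 had a start peak together with a 3′ peak in both controls (1.02%). A peak at the 3′ end was called for 6, 7, 4 and 0 of the 9 (4.21%, 8.3%, 2.12% and 2.9%). Ubb, Eef1a1, Fth1, Ftl1 and Tmsb4x had a 3′ peak in both controls (2.9% of the other genes) and none in esculetin library 2 (0.922%), but Fth1, Ftl1 and Tmsb4x kept one in esculetin library 1. The 3′ peak was in both controls and in neither esculetin library for Ubb and Eef1a1 (0.842%, 52 other genes), and the opposite pattern was found for 0 of the 9 and 5 other genes (0.0809%). The esculetin libraries thus differed from each other by 4 genes at the 3′ end, and esculetin library 1 had the shorter list of the 2.

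**Figure D3:**
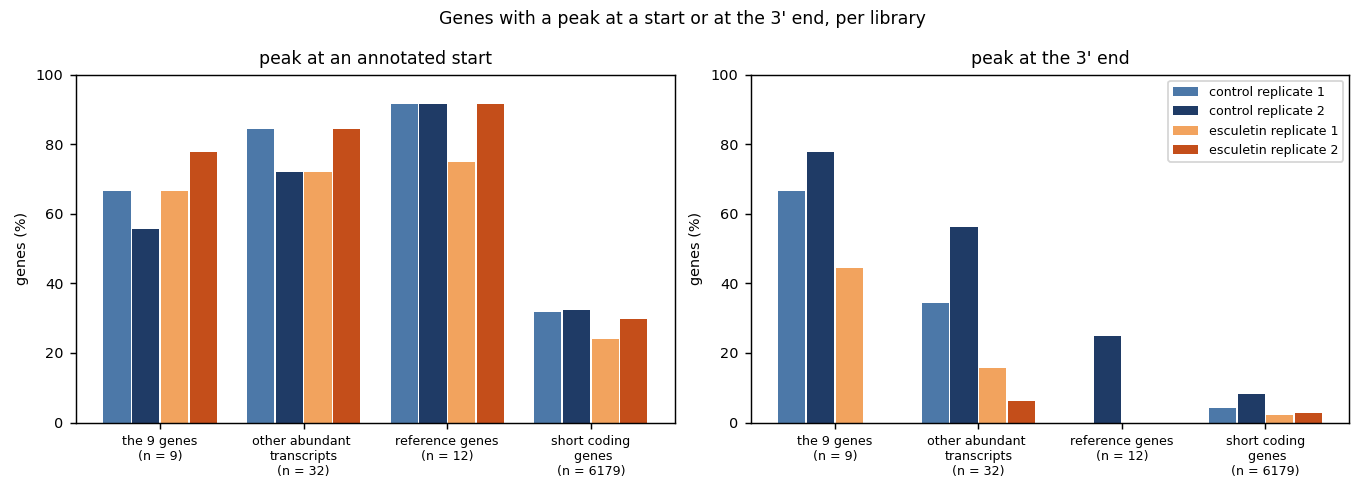
Percent of genes with a peak at an annotated start (left) and at the 3′ end (right) in each library, for the 9 genes, 32 other abundant transcripts, 12 reference genes and 6179 other coding genes of 1 to 10 kb. At the 3′ end the bars fall from control library 2 to esculetin library 2 in the 9 genes (7 to 0 genes), whereas the bars at the start lie between 5 and 7 genes.

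The share of the 9 gene bodies that lay in a peak was 16.6% and 26.9% in control libraries 1 and 2 and 15.3% and 13.5% in esculetin libraries 1 and 2. The means were 21.7% ± 7.27 (SD, n = 2) and 14.4% ± 1.23 (SD, n = 2), and the difference of -7.33 percentage points was -2.19 without control library 2. Along the gene the libraries differed more than in the total. With each gene cut into 10 equal parts, part 1 at the 5′ end was covered to 13.7%, 17.7%, 29.1% and 25.5%, which is higher in both esculetin libraries, and part 10 to 48.4%, 74.7%, 29.9% and 0%, which is higher in both controls. In part 9 the esculetin libraries had 2.29% and 0%, against 20.3% and 58.1% in the controls. The covered bases of part 10 in esculetin library 1 lay in Actb, Fth1, Ftl1 and Tmsb4x.

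**Figure D4:**
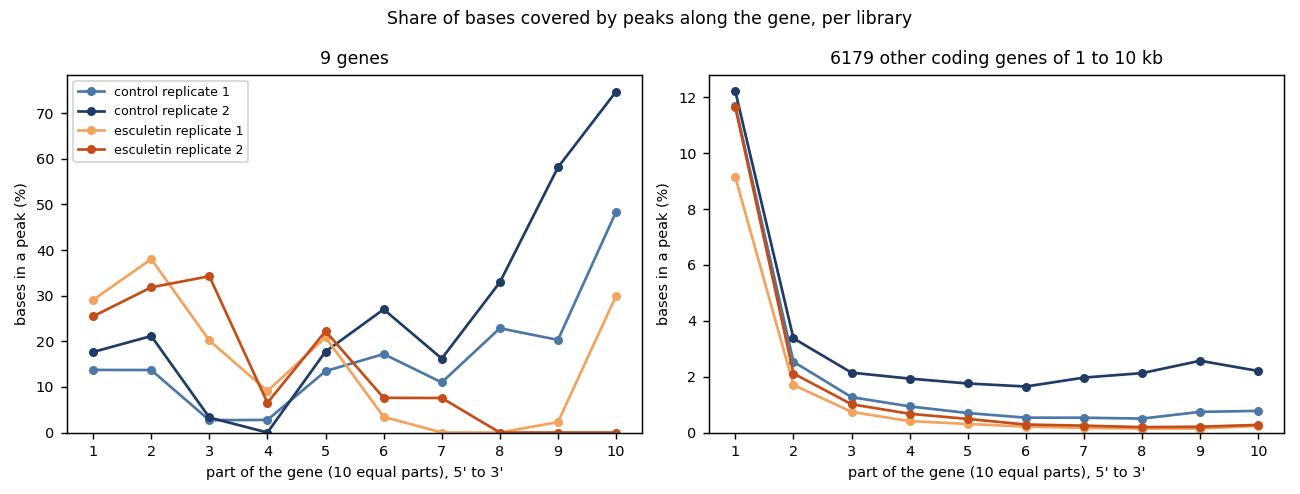
Percent of bases inside a peak in each of 10 equal parts of the gene from the 5′ to the 3′ end, for the 9 genes (left) and 6179 other coding genes of 1 to 10 kb (right, with its own scale). In the 9 genes both control lines rise toward the 3′ end, to 48.4% and 74.7%. Esculetin library 1 is highest in part 2 (38.0%) and rises again to 29.9% in part 10, esculetin library 2 is highest in part 3 (34.3%), and in the other genes all 4 lines are highest in part 1.

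The other coding genes, which played no part in the choice, were tested. Among those with a peak, the strongest was at the 5′ end for 63.1% ± 9.52 of genes under DMSO and 75.7% ± 0.888 under esculetin (SD, n = 2 each), and at the 3′ end for 9.06% ± 3.03 and 5.60% ± 0.246 (SD, n = 2 each). The two-sided exact permutation test gave p = 0.33 for both, which is the smallest value that 2 libraries against 2 allow, so that no difference could reach the usual threshold. A peak was present at the 3′ end for 6.26% ± 2.90 against 2.51% ± 0.549 (SD, n = 2 each), with the same exact permutation p = 0.33, and the difference of -3.75 percentage points was -1.70 without control library 2. When control library 2 was dropped, the difference at the 5′ end fell from 12.6 to 5.84 percentage points and that at the 3′ end changed from -3.46 to -1.31. Peaks covered 2.02%, 3.19%, 1.32% and 1.71% of these gene bodies (exact permutation p = 0.33), a difference of -1.09 percentage points that was -0.505 without control library 2.

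The same places were read in other gene lists. Of 32 other abundant transcripts, 11, 18, 5 and 2 had a peak at the 3′ end and 27, 23, 23 and 27 at an annotated start. Some of these 3′ peaks lay past the gene, such as that of Eef2 (5879 bp long) at 6268 bp in esculetin library 2. Eef2 is named here after its values were seen. The 4 with the strongest peaks were Hspa8, a chaperone, the glycolytic genes Pgk1 and Pkm, and Tubb5, a tubulin. In Hspa8 the strongest summit was at the start in 3 libraries (percentiles 89.5, 96.9 and 97.4) and 2009 bp into the gene in control library 2 (percentile 94.7), and Pgk1 had its strongest summit at the start in all 4. Pkm had it at the start in 3 libraries and in the body, at 12431 bp, in control library 2. The strongest summit of the Tubb5 window was never at the start, but 3062 to 3130 bp before it in 3 libraries and at 2940 bp in the body in control library 2. The summits before the start lie outside Tubb5, and whether they belong to a neighbouring gene was not tested. A 3′ peak in both controls and neither esculetin library was present for 4 of the 32, Spp1 (osteopontin), Psap (a lysosomal protein), Actg1 (gamma-actin) and Cfl1 (cofilin), named here after their values were seen. Of 12 reference genes, such as Tfrc, Polr2a and Sdha but also the abundantly transcribed ribosomal protein genes Rplp0 and Rpl13a, 0, 3, 0 and 0 had a 3′ peak and 11, 11, 9 and 11 a start peak. Of 20 genes of other tissues, 0 had a start peak in any library, and 0, 2, 0 and 0 had a 3′ peak. No transcript level was measured in these libraries, and abundance here is textbook knowledge used to write the lists.

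Of 7 paralogs of the 9 genes, 1, 1, 3 and 3 had a peak at an annotated start and 4, 3, 2 and 2 at the 3′ end. Only 1 of the 6179 other coding genes had its strongest peak at the 3′ end in both controls and at the 5′ end in both esculetin libraries (0.0162%), the zinc transporter gene Slc39a7, against Ubb alone among the 9. Among all 20010 coding genes of at least 1 kb outside the set, 7 had this pattern, and they included Psap, whose strongest summits lay at 24276 and 24565 bp in the controls and at 28 and 415 bp in the esculetin libraries. The peaks of Slc39a7 were at percentiles 43.8 and 60.1 in the controls and 73.1 and 57.3 in the esculetin libraries. Their summits lay at 3621 and 2802 bp in control libraries 1 and 2 and at -63 and -61 bp in the esculetin libraries. Slc39a7 is 3425 bp long, so its summit in control library 1 lay past the gene, and whether it belongs to a neighbouring gene was not tested. The percentiles of Ubb were 99.3 and 99.85 in the controls and 93.6 and 77.5 in the esculetin libraries.

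Pseudogenes of the 9 genes were read last, since a processed copy holds the sequence of the spliced messenger RNA at another place in the genome. Of the 16 pseudogenes named for one of the 9 genes, 5, 9, 1 and 0 had a peak (31.2%, 56.2%, 6.25% and 0%). Over all 8144 annotated pseudogenes of 300 to 3000 bp the shares were 3.19%, 20.1%, 0.405% and 0.319%. The 5 with a peak in control library 1 also had one in control library 2 and are named here. Ubb-ps, at chr14:46084027-46084957, had a peak of 959 bp at level 14.6 in control library 1 and one of 933 bp at level 59.3 in control library 2, and none in the esculetin libraries. The peaks over Tpt1-ps3 (chr6:99877611-99878433) had levels of 14.8 and 67.7 in the controls, where Tpt1 itself had no 3′ peak. Eef1a1-ps1 (chr19:17926557-17928613) was at 7.38 and 46.6, and Actb-ps1 (chrX:152490237-152491652) at 4.00 and 19.4. Ftl1-ps1 (chr13:74406397-74407325) was at 14.1 and 37.8, and at 9.46 in esculetin library 1, which is the library of its group in which Ftl1 had a 3′ peak. The pseudogene peaks and the 3′ peaks of the 9 genes were both most frequent in control library 2 and both absent from esculetin library 2. Which of the copies the reads of a shared stretch came from was not tested.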

How the data were processed

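The series holds 4 ATAC-seq libraries of RAW264.7 cells, grouped by the treatment in the labels. As the study's methods state, Trim-Galore was used for trimming, Bowtie2 for alignment to mm10, Sambamba to discard duplicate and multi-mapped reads and MACS2 for calling peaks, here once per library. The options, including any shift of read ends for Tn5, are not given in the sources used here. Discarding multi-mapped reads reduces signal at genes with near-identical copies, so values of Gapdh, Actb, Ubb, Eef1a1, Tpt1, Ftl1 and Fth1 are uncertain where copies share reads. The lists deposited by the authors hold for each summit a score (a rounded-down form of the −log10 q), the fold enrichment as a linear ratio, the −log10 p and the −log10 q. They hold no read counts, so the count model of the study was not run. Peak names inside the lists of esculetin replicates 1 and 2 carry the labels E2 and E3.

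The 9 genes and all gene lists were chosen with earlier results of these data known. Genes came from RefSeq GRCm38.p6. The strand of 17492 coding genes was read from its promoter table and that of 3948 from GENCODE by symbol and chromosome (21440 of 21887, 98.0%, and both sources gave the same strand for 99.4% of 15718). Exons and introns were not placed. The strongest peak of a window was the one with the highest −log10 q. Summit coverage was solved from fold and p (fold as coverage plus 1 over background plus 1, Poisson p) and divided by the genome-wide background. On simulated data the solver and the placement returned all values. A percentile is the share of the list with a lower −log10 q, and it depends on the length of the list. Comparison genes were coding genes of 1 to 10 kb. From each list, up to 4 genes with a peak in all 4 libraries and the highest mean percentile were named, and all 9 genes were described. The values of 1 gene that this rule would name are not reported here. The count of 3′ end peaks and the use of any annotated start for the other genes were added after seeing the data. Group values are mean ± SD (n = 2), and the exact permutation tests were two-sided over all ways to divide the libraries into groups of 2. Python 3.11.15 was used with NumPy 2.4.6, pandas 2.3.3, matplotlib 3.10.9 and SciPy 1.17.1.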

Additional observations from a re-analysis of the deposited data

How the results depend on the processing

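With 2 libraries per group no test could pass its threshold, so only directions and sizes are compared. The number of the 9 genes with the strongest peak at the 5′ end was 2 higher in the esculetin group. It was 3.5 higher with equal numbers of top peaks (8677 per library) and by the nearer end of the gene, 3 higher with any annotated start, and 1 (without control replicate 2) to 3 (without control replicate 1) higher when one library was left out. The count with a 3′ peak was 4.5 lower (-4.5), and -2.5 to -6.5 when one library was left out. The other 52 comparisons of group values with an alternative setting kept their direction, and those without a test also moved by less than the spread between replicates. With 2 libraries per group, leaving 1 out cannot move a difference beyond that spread. For those settings the size of the move is therefore no check of stability. The 3′ end difference in the other coding genes, -3.46 percentage points, was -1.52 with ends of 500 bp, -1.77 with longer genes included and -8.14 by the nearer end, and -1.31 to -5.60 when one library was left out. The 5′ end difference ranged from 5.84 to 19.3 percentage points, that in covered share from -2.19 to -12.5, and that in median level from -0.0863 to -19.5, each from leaving out control replicate 2 to leaving out control replicate 1. For single genes 53 kept their direction and 1 did not, the strongest summit of Eef1a1, whose difference ranged from -3047 bp (without control replicate 1) to 97 bp (without control replicate 2). The direction held with little size left for Tmsb4x (-948 bp, and -16 bp without esculetin replicate 2) and, without control replicate 2, for Ftl1 (from -897 to -90 bp) and Fth1 (from -1219 to -110 bp). The labels share only replicate numbers, and same-numbered libraries did not deviate together (r = 0.000841 across 6359 regions called in all 4, which are not independent replicates). With 1 library of each group per number a replicate block cannot change a difference of means, which stays at 2 genes, -7.33, -3.46 and 12.6 percentage points, so it is no check of stability. Its smallest p is 0.5 (exact sign-flip permutation). Depth is known only from the solved background, and an absent peak means that none was called at q 0.05, not that the chromatin was closed.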
